A study of Mus musculus with 12 samples.

Results

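The genes described here are 49 genes of mitosis and the kinetochore, chosen by name: the mitotic cyclins and their kinase, the Aurora, Polo and checkpoint kinases, the chromosomal passenger complex, kinetochore proteins, spindle motors, cytokinesis factors, condensin subunits and the nuclear lamina. They were followed in mouse dendritic cells derived from marrow cultures. Of the 49 genes, 47 had a probe that could be matched through its accession, and all 47 passed the filter on dim probes, out of 11095 genes tested. Cenpf and Ncapg had no matched probe. All 47 were well above background on all 3 arrays of unstimulated cells, and 34 were so on all 12 arrays of the study. Ttk, Kif11, Hmmr and Anln passed the filter only through the unstimulated cells.

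Marrow from femur and tibia was depleted of B and T cells. The rest grew over 5 days in the cytokines GM-CSF (10 ng/ml) and IL-4 (5 ng/ml), a culture that yields dendritic cells and can keep precursors and granulocytes. The cells were then given the bacterial lipopolysaccharide LPS at 100 ng/ml for 0 h (unstimulated), 1 h, 6 h or 24 h, with 3 samples in each group, lettered by donor A, B and C. The labels give no strain, age or genotype, name no sort before RNA extraction, and do not state that 1 letter stands for 1 animal across groups. Unstimulated cells were collected at 0 h only, so LPS and time in culture cannot be told apart. RNA of each sample was labelled with Cy5 and hybridised with a Cy3-labelled reference pool of mouse RNA, without a dye swap, and every value below is a log2 ratio of Cy5 to Cy3 or a difference of such ratios. A value of a gene can therefore be compared between samples, but not with the value of another gene.

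Mitosis is driven by CDK1 bound to cyclin B, whose activity is switched on by CDC25 phosphatases and ends when the anaphase-promoting complex marks cyclin B for destruction. Kinetochores, built on centromeres that carry the histone CENP-A, hold chromosomes to spindle microtubules, and a checkpoint at unattached kinetochores restrains CDC20, the activator of the anaphase-promoting complex. Most of these genes are transcribed in late S phase, G2 and mitosis, so their RNA is abundant in dividing cell populations and scarce in resting ones.

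The mitotic genes fell together after LPS. At 24 h, 46 of the 47 were lower than in unstimulated cells and 1, the securin gene Pttg1, was higher (limma, adjusted p under 0.05 by Benjamini-Hochberg across the whole table). By the same rule 21.4% of all genes tested were lower and 18% were higher, 39.4% in all. The median log2 change of the 47 genes was -1.77, beside 0.02 for all genes tested, and 42 of them were at least 2-fold lower, as were 6.55% of all genes. Without the 4 genes that passed the filter through the unstimulated cells alone, 42 of 43 were lower at 24 h. At 6 h, 43 were lower and Pttg1 was higher, where 23.6% of all genes were lower and 16.1% higher, 39.6% in all, and the median change was -1.54, beside -0.04. At 1 h, 5 were lower and none was higher, where 3.39% of all genes were lower and 4.06% higher, 7.44% in all, and the median change was -0.80, beside 0.02. At an unadjusted p under 0.05, 30 of the 47 differed at 1 h (24.3% of all genes), and with the donor letter as a block 13 were called, all lower (10.1% of all genes). Every one of the 47 genes differed between the 4 groups by the moderated F test, as did 51.8% of all genes. In bulk RNA, fewer dividing cells and less of these RNAs per cell cannot be told apart.

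**Figure D1:**
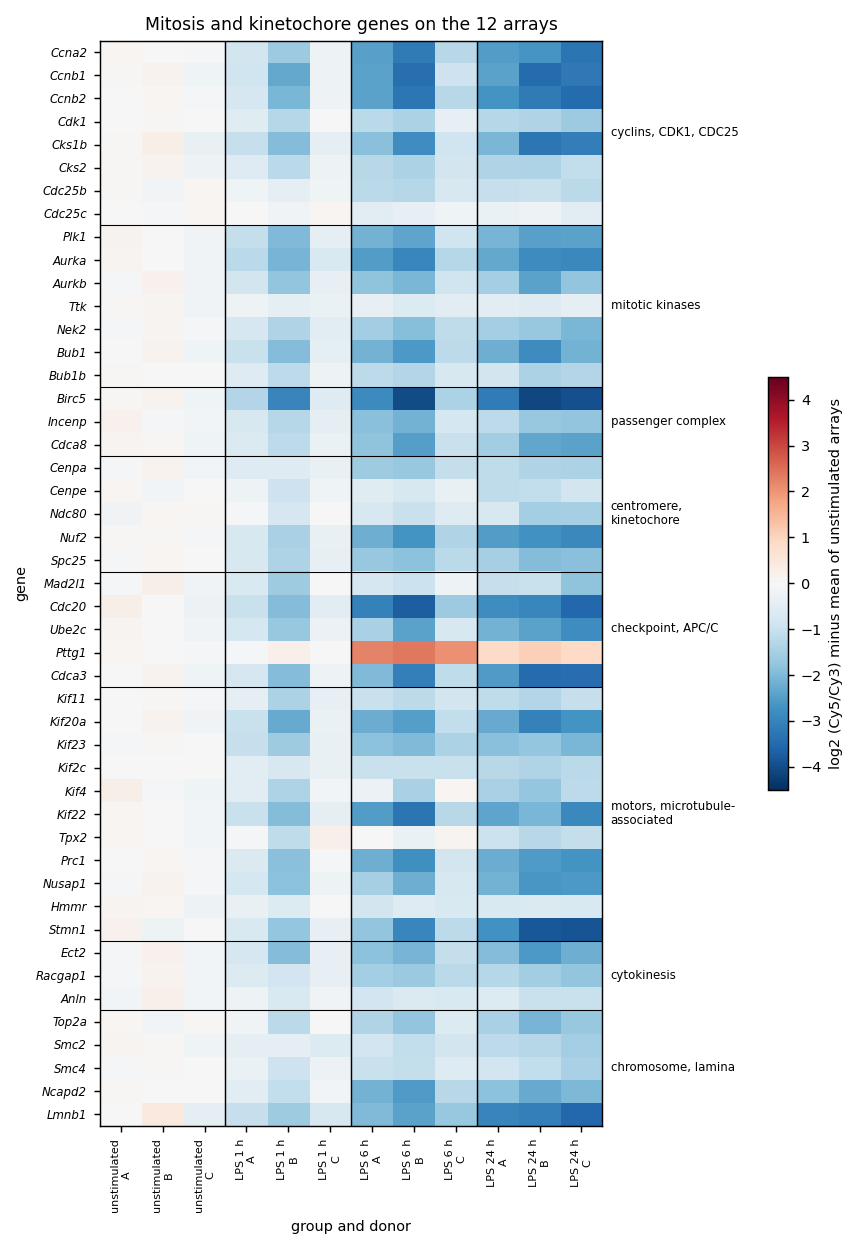
Log2 ratio of each of the 47 genes (rows, grouped by role) on each of the 12 arrays (columns, by group and donor), minus the mean of that gene over the 3 unstimulated arrays; blue is lower and red higher. Nearly every row turns blue at 6 and 24 h, and the Pttg1 row is red at both times.

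The per-array medians show how the fall was spread over samples. Over the 47 genes the median log2 ratio was -0.70, -0.59 and -0.89 in unstimulated donors A, B and C. It was -1.38, -2.18 and -1.05 at 1 h, -2.29, -2.65 and -1.57 at 6 h, and -2.35, -2.75 and -2.87 at 24 h, in the same donor order. The 1 h and 6 h groups were uneven: donor B gave the lowest value of the 1 h group for 45 of the 47 genes and of the 6 h group for 42, and donor C gave the highest for 43 at 1 h and 42 at 6 h. At 24 h all 3 arrays lay below every unstimulated array for 46 of the 47 genes, where 26.7% of all genes did so. At 6 h this held for 44 (31.1% of all genes) and at 1 h for 38 (16.5%).

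**Figure D2:**
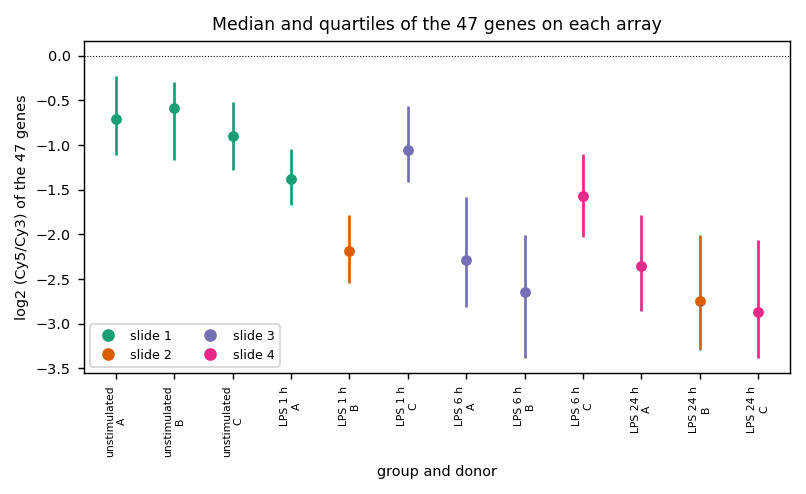
Median (point) and quartiles (bar) of the log2 ratio over the 47 genes on each array, coloured by the slide that held the array. Unstimulated arrays lie highest, between -0.89 and -0.59, and the 24 h arrays lowest, between -2.87 and -2.35; the 1 h and 6 h groups are spread widely.

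The arrays lay on 4 slides, which were also scanned apart, and all unstimulated arrays shared slide 1 with the 1 h array of donor A. Slide 1 held no 6 h or 24 h array. The 1 h arrays of donors A, B and C lay on slides 1, 2 and 3. With a slide block, later groups reach unstimulated cells through these single arrays, so slide and donor cannot be told apart there. The block also leaves 5 residual degrees of freedom, against 8 without it. With the slide as a fixed block, 32 of the 47 genes were called at 24 h (15.9% of all genes) and 22 at 6 h (17.6%), with median changes of -1.87 and -1.68. At 1 h none was called with the block (2.04% of all genes) and 12 had an unadjusted p under 0.05 by limma (15.3% of all genes), with a median change of -0.69. The 15 genes whose 24 h call was lost with the block were Cdk1, Cks2, Cdc25c, Ttk, Cenpe, Ndc80, Mad2l1, Kif11, Kif4, Kif22, Tpx2, Prc1, Hmmr, Anln and Smc4. The 22 whose 6 h call was lost were Ccna2, Ccnb1, Ccnb2, Cdk1, Cks1b, Cdc25c, Ttk, Birc5, Cenpe, Ndc80, Ube2c, Cdca3, Kif11, Kif22, Prc1, Nusap1, Hmmr, Stmn1, Anln, Top2a, Smc2 and Smc4. Within slide 1, the 1 h array lay below the mean of the unstimulated arrays for all 47 genes. The median difference was -0.69, beside 0.01 for all genes tested. Where slides were linked through shared groups, the 24 h difference through slides 1 and 2 had a median of -1.24, beside -0.02 for all genes. Through slides 1, 3 and 4 the median was -2.99, beside 0.02 for all genes. In both, 46 of the 47 genes lay below 0. The share of all genes below 0 was not counted for these differences within and across slides. The slide with both donor B arrays of 1 h and 24 h had the highest share of probes above background in the reference channel, 68.7% and 68.6%, where the other arrays had 58.6 to 63.6%. Without both of its arrays, a choice made after seeing the data, 47 genes were called at 24 h (37.3% of all genes), 44 at 6 h (43.7%) and 0 at 1 h (4.28%), the last with 12 at an unadjusted p under 0.05 (18.8%).

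Promoters of these genes often carry CCAAT boxes, bound by the factor NF-Y, and a downstream element known as the CHR, with the letters TTTGAA in its common form and TTTAAA in a variant, through which the DREAM and MuvB complexes act on cell cycle genes. The stretches below are the 120 bases before the annotated start, 5′ to 3′ along the gene, from RefSeq on GRCm38.p6. They belong to 4 genes with large falls and to Pttg1, and were picked for their expression and not for their motifs. The 4 do not follow a strict ranking. Stmn1 (-3.48), Lmnb1 (-3.19) and Cdca3 (-3.16) fell more at 24 h than Ccnb2, Cdc20 and Ccnb1 and are not shown. Stmn1 and Lmnb1 had no promoter sequence to search. Capitals mark the CCAAT box and both forms of the CHR on either strand.
Birc5 (chr11:117849117-117849236, plus strand): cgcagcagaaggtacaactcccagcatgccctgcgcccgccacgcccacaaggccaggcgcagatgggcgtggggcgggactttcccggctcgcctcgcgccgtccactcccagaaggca
Cdc20 (chr4:118437344-118437463, minus strand): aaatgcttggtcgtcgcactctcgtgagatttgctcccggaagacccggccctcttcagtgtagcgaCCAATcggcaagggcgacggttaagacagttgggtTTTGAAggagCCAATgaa
Ccnb2 (chr9:70421555-70421674, minus strand): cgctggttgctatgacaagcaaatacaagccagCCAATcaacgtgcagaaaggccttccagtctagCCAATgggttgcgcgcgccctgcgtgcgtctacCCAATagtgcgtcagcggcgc
Ccnb1 (chr13:100786487-100786606, minus strand): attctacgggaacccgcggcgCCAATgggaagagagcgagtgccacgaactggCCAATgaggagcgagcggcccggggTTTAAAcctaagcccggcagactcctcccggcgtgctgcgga
Pttg1 (chr11:43425982-43426101, minus strand): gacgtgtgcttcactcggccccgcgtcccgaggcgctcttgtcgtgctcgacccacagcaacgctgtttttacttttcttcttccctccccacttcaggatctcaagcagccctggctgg
Cdc20 and Ccnb1 hold 2 CCAAT boxes each, with the common CHR in Cdc20 and its variant in Ccnb1, and Ccnb2 holds 3 CCAAT boxes. Birc5, which fell most, holds none of these letters in the stretch shown, and neither does Pttg1, which rose, so that the motifs did not separate these 2 genes.

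The wider window from 250 bases before to 50 after the start was searched on both strands for 40 of the 49 genes, which have 42 windows. Cenpf and Ncapg, which had no matched probe, are among the 40, and Ect2 and Prc1 have more than 1 window. No window was available for Ccna2, Cdc25c, Aurkb, Incenp, Kif20a, Tpx2, Stmn1, Smc4 and Lmnb1. CCAAT stood in 81% of the 42 windows, beside 38.2% of 21263 windows of all protein-coding genes in the table. At least 2 copies stood in 54.8%, beside 12.8%. TTTGAA stood in 73.8% beside 16%, and CCAAT together with either form of the CHR in 71.4% beside 9.95%. The E2F-like letters TTTGGCGC, TTTCCCGC or TTTCGCGC were found in 7.14% beside 2.41%. In this wider window Birc5 had 1 TTTAAA and no CCAAT, and Ccnb2 had 2 TTTGAA. Pttg1 had none of the motifs, and the same was true of Mad2l1, Nuf2 and Nusap1, which all fell by 24 h. These letters are a description of sequence, and no binding was measured here.

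Cyclins and the CDK1 engine were the first group by role. All 8 of its genes were lower at 6 h and at 24 h, and none was called at 1 h. Ccnb1, the main cyclin B, had log2 ratios of -2.65, -3.69 and -3.44 at 24 h, against -0.19, -0.10 and -0.43 in unstimulated cells. The groups did not overlap, and the change was -3.02 ± 0.57 (SE, n = 3 each, adjusted p = 0.00111), 8.13-fold lower. The probe used was well above background on 2 of the 3 arrays at 24 h. The 2 dimmer probes of Ccnb1 gave -2.04 and -2.22 at 24 h. Ccnb2, the second cyclin B, had -2.75, -3.27 and -3.53 at 24 h, against -0.08, 0.01 and -0.17 in unstimulated cells, a change of -3.11 ± 0.47 (adjusted p = 0.000263). Cdk1 itself changed less than its cyclins in size, to -2.35, -2.43 and -2.70 at 24 h, against -1.07, -1.03 and -1.10 in unstimulated cells. Its change of -1.42 ± 0.30 had an adjusted p of 0.00221 and, with the slide as a block, of 0.0896. Cdc25b, a phosphatase that activates CDK1, reached its low level by 6 h, with a change of -1.07 ± 0.15 at 6 h and -1.08 ± 0.15 at 24 h, and a dimmer probe gave -1.64 and -1.82. Cdc25c, of the same family, was not above background on any 24 h array, so that no size is given for its change.

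Mitotic kinases were lower in 7 of 7 cases at 6 h and at 24 h, and in 1 of 7 at 1 h. Aurka, the Aurora kinase of spindle poles, had -2.80, -3.34 and -3.41 at 24 h, against -0.36, -0.49 and -0.65 in unstimulated cells, a change of -2.68 ± 0.39 (adjusted p = 0.000189). At 1 h it had already changed by -1.33 ± 0.39, which missed the threshold at an adjusted p of 0.0591 and passed it with the donor letter as a block (adjusted p = 0.0279). Plk1, the Polo-like kinase that promotes mitotic entry, changed by -2.31 ± 0.38 at 24 h, and Bub1, a checkpoint kinase of the kinetochore, by -2.38 ± 0.38. Aurkb, the catalytic subunit of the chromosomal passenger complex, changed by -1.90 ± 0.36. Ttk, the kinase that starts the checkpoint at kinetochores, was not above background on any array at 6 h or 24 h. It passed the filter through the unstimulated cells alone, so its place in the count is no separate support. Nek2, a centrosome kinase, was among the 5 genes called at 1 h, with a change of -0.88 ± 0.23 (adjusted p = 0.0371, and 0.306 with the slide as a block). At 24 h Nek2 was well above background on only 1 of the 3 arrays.

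Birc5, which encodes the passenger complex subunit survivin, had the largest fall of the 47 genes at 24 h and the lowest mean change at 1 h. Its log2 ratios were -2.92, -3.86 and -3.73 at 24 h, against 0.30, 0.39 and 0.03 in unstimulated cells. That is a change of -3.74 ± 0.61 (adjusted p = 0.000443), 13.4-fold lower. The 1 h arrays read -1.09, -2.73 and -0.32, all below the unstimulated arrays but far apart, and the change of -1.62 ± 0.61 did not pass the threshold (adjusted p = 0.129). Incenp and Cdca8, which encode the scaffold and the borealin subunit of the complex, were also lower at 6 h and 24 h, and a dimmer probe of Cdca8 gave -1.44 at 24 h.

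Kinetochore genes were lower in 5 of 5 cases at 6 h and at 24 h. Cenpe, 1 of the 5, was not above background on any 24 h array, so no size is given for its change. With the slide as a block Cenpe was not called by limma at 6 h (adjusted p = 0.422) or 24 h (adjusted p = 0.123). Nuf2, a subunit of the NDC80 complex that binds microtubules, had -2.97, -3.17 and -3.38 at 24 h, against -0.42, -0.41 and -0.57 in unstimulated cells, a change of -2.71 ± 0.31 (adjusted p = 3.33e-05). Its partner Ndc80 changed by -1.25 ± 0.23 (adjusted p = 0.000987, and 0.0735 with the slide as a block). Ndc80 was well above background on only 1 of the 3 arrays at 24 h. The size of its change is therefore limited by the background and cannot be ranked against that of Nuf2. Cenpa, the centromeric histone, was lower by 6 h, at -0.82, -0.92 and -0.28, against 0.75, 0.97 and 0.67 in unstimulated cells. Its change was -1.47 ± 0.17 at 6 h and -1.31 ± 0.17 at 24 h, and the 24 h and 6 h groups differed by 0.16 ± 0.17 (adjusted p = 0.563).

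Genes around the anaphase-promoting complex held the one exception. Cdc20, the activator that the checkpoint restrains, had -3.73, -4.39 and -2.32 at 6 h, against -0.41, -0.70 and -0.95 in unstimulated cells. Its change of -2.79 ± 0.46 was the lowest of the 47 genes at that time (adjusted p = 0.000408), and it was -3.09 ± 0.46 at 24 h. Ube2c, the ubiquitin-conjugating enzyme that works with the complex, changed by -2.44 ± 0.39 at 24 h, and Cdca3, a substrate of the complex, by -3.16 ± 0.47, where a dimmer probe gave -1.40. Mad2l1, the checkpoint protein that binds CDC20, was lower at 24 h (-1.29 ± 0.34, adjusted p = 0.00977, and 0.283 with the slide as a block) and not at 6 h (-0.65 ± 0.34, adjusted p = 0.157).

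Pttg1 encodes securin, which holds the cohesin-cutting protease separase inactive until anaphase. Its log2 ratios were -1.03, -1.10 and -1.21 in unstimulated cells, -1.19, -0.89 and -1.13 at 1 h, 1.12, 1.27 and 0.96 at 6 h, and -0.26, -0.05 and -0.20 at 24 h. The 6 h arrays stood above all others, and the 24 h arrays lay between them and the unstimulated ones with no overlap. The change was 2.23 ± 0.12 at 6 h (adjusted p = 8.71e-08), 4.70-fold higher, and 0.95 ± 0.12 at 24 h (adjusted p = 9.12e-05). At 24 h against 6 h it fell by 1.29 on the log2 scale (adjusted p = 6.23e-05). Over the alternatives tried, the change ranged between 2.10 and 2.54 at 6 h and between 0.73 and 1.00 at 24 h. With the slide as a block it was 2.17 at 6 h (adjusted p = 0.00017) and 0.89 at 24 h (adjusted p = 0.0221). Espl1, which encodes separase, was lower, with a change of -0.86 ± 0.23 at 6 h (adjusted p = 0.00979) and -1.05 ± 0.23 at 24 h (adjusted p = 0.00307). Neither was called with the slide as a block (adjusted p = 0.292 at 6 h and 0.237 at 24 h).

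**Figure D3:**
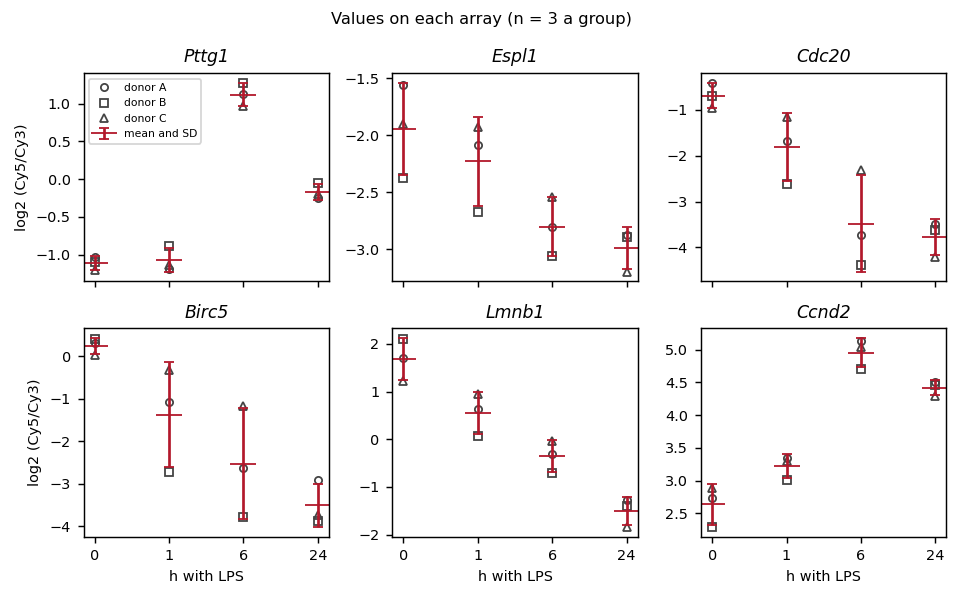
Log2 ratio on each array (symbols by donor) with the mean and SD of the 3 arrays, against hours with LPS, in equal steps, for Pttg1, Espl1, Cdc20, Birc5, Lmnb1 and Ccnd2; each panel has its own scale. Pttg1 peaks at 6 h, Ccnd2 stays high at 6 and 24 h, and the other 4 decline.

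Spindle motors and microtubule-associated proteins were lower in 9 of 11 cases at 6 h and 11 of 11 at 24 h. Stmn1, which encodes the microtubule-destabilising protein stathmin, had -3.71, -4.79 and -4.86 at 24 h, against -0.76, -1.18 and -0.97 in unstimulated cells, a change of -3.48 ± 0.44 (adjusted p = 7.3e-05). A dimmer probe of Stmn1 gave -0.91 at 24 h, so the size of its fall depends on the probe. Kif22, a motor that pushes chromosomes outward, changed by -2.35 ± 0.45 at 6 h (adjusted p = 0.0957 with the slide as a block), and Kif20a, a motor of the central spindle, by -2.67 ± 0.44 at 24 h. Prc1, which bundles the microtubules of the central spindle, changed by -2.50 ± 0.46 at 24 h. Kif11, the motor that separates spindle poles, and Hmmr, a spindle-associated protein, were not above background on any 24 h array. Both passed the filter through the unstimulated cells alone, so they add no separate support to the count and no size is given. Kif2c was also not above background on any 24 h array.

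Tpx2, the activator of Aurora A, fell late. It had -1.21, -1.51 and -1.11 at 6 h, against -1.14, -1.19 and -1.34 in unstimulated cells, which overlap (change -0.05 ± 0.26, adjusted p = 0.899). At 24 h it had -2.19, -2.46 and -2.30, a change of -1.09 ± 0.26 (adjusted p = 0.00508), and the 24 h and 6 h groups differed by -1.04 ± 0.26 (adjusted p = 0.0164). Kif4, a chromosome-bound motor, was likewise called at 24 h and not at 6 h. With the slide as a block, Tpx2 was not called at 24 h (adjusted p = 0.217).

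All 3 cytokinesis genes were lower at 6 h and 24 h. Anln, which encodes the contractile ring protein anillin, was not above background on any 24 h array. It passed the filter through the unstimulated cells alone, so its place in the count is no separate support. Its level at 24 h is given as at least 1.71-fold lower. That bound sets the mean Cy5 level of unstimulated cells against, on each 24 h array, the higher of the dimmest signal well above background and the gene's own, and with no dye swap it is open to dye bias. Ect2 and Racgap1, which control the GTPase RhoA at the cleavage site, changed by -2.24 ± 0.35 and -1.54 ± 0.17 at 24 h, though a dimmer probe of Racgap1 gave -0.36.

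Chromosome and lamina genes were lower in 5 of 5 cases at 6 h and at 24 h. Lmnb1, which encodes lamin B1 of the nuclear envelope, was the only one of the 47 called at 1 h and in both comparisons of consecutive later times, though none of these 3 calls was kept with the slide as a block (adjusted p = 0.243 at 1 h, 0.0632 for 6 h over 1 h and 0.0946 for 24 h over 6 h). It had -1.28, -1.41 and -1.84 at 24 h and -0.32, -0.71 and -0.03 at 6 h, against 1.71, 2.11 and 1.23 in unstimulated cells. Its change was -1.13 ± 0.27 at 1 h (adjusted p = 0.0232), -2.03 ± 0.27 at 6 h and -3.19 ± 0.27 at 24 h (adjusted p = 3.65e-06). Ncapd2, a condensin subunit, changed by -1.96 ± 0.29 at 6 h and -2.04 ± 0.29 at 24 h. Top2a, the topoisomerase that untangles sister chromatids, changed by -1.75 ± 0.32 at 24 h, and by -0.56 on a dimmer probe. The probe used for Top2a was well above background on 2 of the 3 arrays at 24 h.

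**Figure D4:**
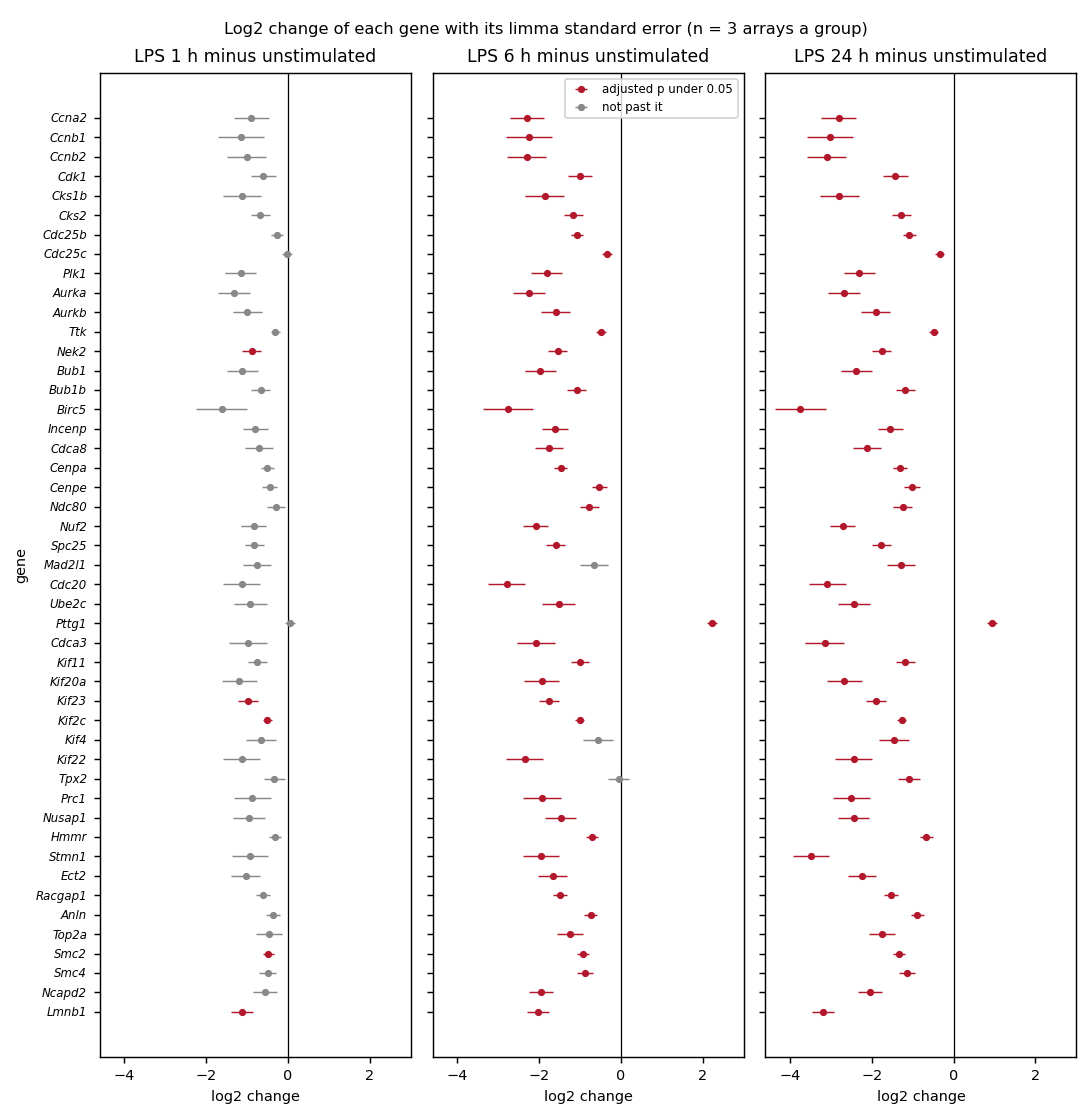
Log2 change of each of the 47 genes at 1 h, 6 h and 24 h against unstimulated cells, with the limma standard error; red points have an adjusted p under 0.05. The 5 red points at 1 h are Nek2, Kif23, Kif2c, Smc2 and Lmnb1, and Pttg1 is the only gene to the right of 0 among the red points at 6 and 24 h.

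Between later times the calls were fewer. At 6 h against 1 h, 14 of the 47 genes were lower and Pttg1 was higher, where 16.2% of all genes were lower and 12% higher, 28.2% in all, with a median change of -0.73 beside -0.09 for all genes. At 24 h against 6 h, 4 were lower (Pttg1, Tpx2, Stmn1 and Lmnb1) and none was higher, where 8.78% of all genes were lower and 9.66% higher, 18.4% in all, so that the share of 8.51% was near the background. With the donor letter as a block, the calls were 22 for 6 h against 1 h (31.2% of all genes), and 8 in the last comparison (21.7%). Of the 4, Pttg1 alone was still called with the slide as a block. All 3 arrays lay below those of the earlier time for 8 genes at 6 h against 1 h, where 24% of all genes did so, and for 7 at 24 h against 6 h, where 15.3% did. In 40 of the 47 genes the group means declined in the order unstimulated, 1 h, 6 h and 24 h. Ttk, Kif11 and Anln, which passed the filter through the unstimulated cells alone, are among the 40. The share of all genes in that order was not counted, so the count has no background to be set against. By calls against unstimulated cells, 5 genes were lower at all 3 times, 38 from 6 h on, and 3 (Mad2l1, Kif4 and Tpx2) at 24 h alone. The counts at 1 h and at 6 h against 1 h hung on single arrays. Without the 1 h array of donor B, 0 genes were called at 1 h (3.66% of all genes), 10 having an unadjusted p under 0.05 (17.4%), and 37 were called at 6 h against 1 h (27.5%).

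With the scanner software's processed signals, in which no offset is added, the median of the 47 genes at 24 h was -2.90.

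Other genes of cell division were read from lists named beside the 49. Of all genes tested, 21.4% were lower and 18% higher at 24 h, and 23.6% were lower at 6 h. With the slide as a block, 15.9% of all genes were called at 24 h in either direction. Of 30 other centromere and kinetochore genes, 25 were lower at 24 h and none was higher, with a median change of -0.99. Sgo1, which protects centromeric cohesin, had the largest change (-3.16 ± 0.48, adjusted p = 0.000264). Of 16 other spindle and cytokinesis genes, 12 were lower and Psrc1 was higher, and Cep55, an abscission factor, changed by -2.73 ± 0.42. Of 12 other condensin and cohesin genes, 10 were lower, among them Cdca5, the cohesin stabiliser sororin (-2.30 ± 0.36). Of 30 DNA replication genes, 29 were lower at 6 h and 29 at 24 h, with a median of -1.67 at 24 h; Rrm2, a ribonucleotide reductase subunit, changed by -3.05 ± 0.28. With the slide as a block, 14 of 30, 8 of 16, 4 of 12 and 22 of 30 genes of these lists were lower at 24 h, and Psrc1 was not called (adjusted p = 0.266).

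The list of anaphase-promoting complex subunits and partners moved less, with 7 of 16 lower, 2 higher and a median of -0.26 at 24 h. Its largest change was that of Fbxo5, an inhibitor of the complex (-2.05 ± 0.21, adjusted p = 1.62e-05). Of 12 other mitotic kinases and phosphatases, 5 were lower and 3 higher at 24 h, beside 21.4% and 18% of all genes. Pbk, a mitotic kinase, was lower (-2.41 ± 0.29), and Plk2, a stress-responsive Polo-like kinase, was higher (1.81 ± 0.40, adjusted p = 0.00336, and 0.0567 with the slide as a block). With that block, 2 of 16 and 3 of 12 genes of these lists were lower and none was higher, where 15.9% of all genes were called. The difference between these lists and the 49 genes was not tested.

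Regulators of the cycle were called in both directions, as were all genes tested (21.4% lower and 18% higher at 24 h, and 15.9% called with the slide as a block). Of 23 transcriptional regulators, 9 were lower at 24 h and 2 higher. E2f8 and E2f7, repressors of the E2F family, changed by -2.32 ± 0.31 and -2.31 ± 0.29, and Mybl2, the B-Myb subunit that joins MuvB at mitotic promoters, by -1.50 ± 0.22. Of 9 G1 cyclins and kinases, 5 were lower and 2 higher at 24 h: Ccnd2, cyclin D2, rose by 1.78 ± 0.17 (adjusted p = 9.18e-06) and Cdk6 by 1.07 ± 0.14, and Ccnd1, cyclin D1, changed by -1.64 ± 0.20. Of 12 CDK inhibitors and growth arrest genes, 4 were higher and 1 lower at 24 h. Cdkn1a, which encodes the inhibitor p21, changed by 1.27 ± 0.16 (adjusted p = 7.79e-05), Cdkn2a by 1.30 ± 0.15 and the antiproliferative gene Btg1 by 1.42 ± 0.28. Under the slide block, 8 of 23 regulators were lower, 2 of 9 G1 genes lower and 2 higher, and 3 of 12 inhibitors higher and 1 lower at 24 h.

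**Figure D5:**
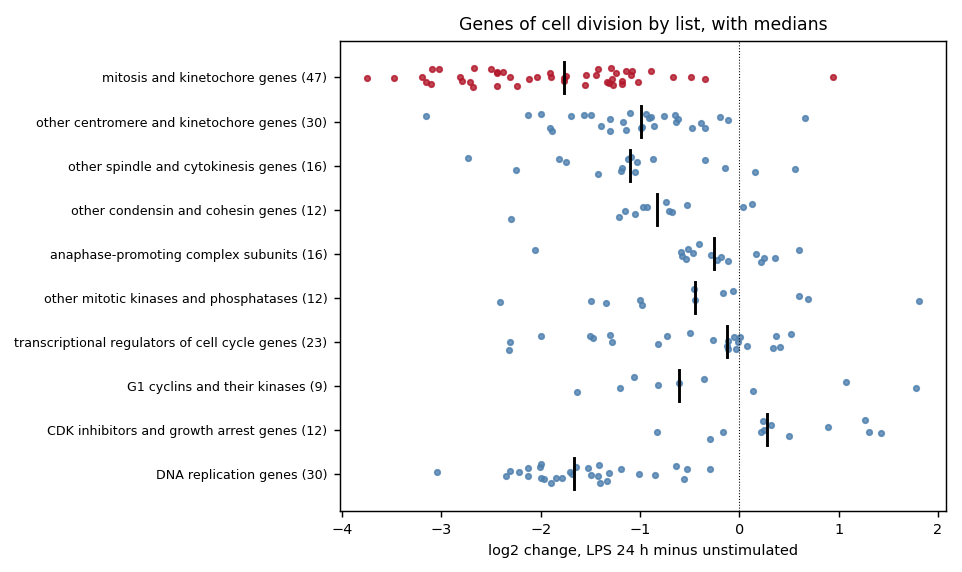
Log2 change at 24 h against unstimulated cells for each gene (points) of the 47 mitosis and kinetochore genes and of 9 other lists, with the median as a black bar; the number of genes stands in brackets. DNA replication genes lie closest to the mitotic genes (median -1.67 beside -1.77), and CDK inhibitors have a median above 0.

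Most markers of granulocytes that were tested were also lower at 24 h. Of 9 granulocyte precursor and neutrophil markers tested, 7 were lower and Lcn2 was higher at 24 h, where 21.4% of all genes were lower. At 1 h, 4 were lower (3.39% of all genes). At 24 h, 5 were lower and 1 higher with the slide as a block, where 15.9% of all genes were called. The summed Cy5 signal of the 12 markers with a probe was 2856 to 15328 at 24 h, 5744 to 15229 at 6 h and 9113 to 22850 at 1 h, against 49239 to 74020 in unstimulated cells. Elane and Retnlg were above background on no unstimulated array. Of 7 progenitor markers tested, 2 (Kit and Spink2) were lower at 24 h, a share of 28.6% beside 21.4% of all genes. Neither was called with the slide as a block (adjusted p = 0.654 and 0.162). Of 11 macrophage and monocyte markers tested, 4 were lower and 3 higher at 24 h, beside 21.4% and 18% of all genes. With the slide as a block, 3 were lower and 3 higher. Of 4 mast cell and basophil markers tested, 1 was lower and 1 higher, and the 1 NK cell marker tested was lower. The T cell, B cell, erythroid and stromal lists had no gene called lower at 24 h. The part of a changed cell mixture in the fall of the mitotic genes was not tested. Dendritic cell markers were present, with 12 of 14 above background on all 3 arrays of every group, and Cd209a and Clec9a were above background on none. Of the 12 tested, 5 were higher at 24 h, where 18% of all genes were higher.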

How the data were processed

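Sample and reference RNA were measured on 12 two-channel Agilent arrays. The scanner files as deposited were made with Agilent Feature Extraction 10.7.3.1 and hold intensity values for 45018 spots, not normalised between arrays, per the file headers. The deposited value table holds log2 ratios that the authors normalised with limma, per the submitters' processing notes, with the version not given in the sources used here. The values derived here had a correlation with it of 0.999 or more on each array. Quality marks of each spot are yes or no flags, per the file headers.

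In R 4.3.3 with limma 3.58.1, median signals were corrected with normexp (offset 50) and normalised by loess (span 0.3) with control spots at weight 0. Local backgrounds marked as outliers were replaced by the array median, after the files were seen; the form without this is an alternative. The signals used are medians, which the files hold. Probes well above background in Cy5 on all 3 arrays of at least 1 group were kept, named through RefSeq accessions, and the brightest probe per gene was used. No spot was saturated. Precision is limited by the number of arrays.

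A model with 1 mean for each group was fitted across the 12 arrays with empirical Bayes moderation, two-sided, and adjusted over 11095 genes. The p-values measure the spread between samples that the labels call biological replicates. Arrays of the same donor letter correlated in their deviations from group means with a median of 0.11 (18 pairs, -0.21 to 0.58), and of different letters with a median of -0.01 (36 pairs, -0.53 to 0.41). Same-letter pairs with an unstimulated array lay between -0.21 and 0.17. For donors A, B and C, those of 1 h with 6 h gave 0.21, 0.55 and 0.55. Those of 1 h with 24 h gave 0.36, 0.58 and 0.21, and those of 6 h with 24 h gave -0.12, 0.41 and 0.14. The labels use the donor letters in every group without stating that a letter is 1 animal, so the fit is given without the donor as a block, and the blocked value beside results whose call it changes.

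The 49 genes and the other lists were chosen with earlier results of these data known. Genes are named with values by a rule: a set of core genes, the 4 lowest and 4 highest changes in each comparison with unstimulated cells, any gene called against the majority, genes with no probe, and up to 4 genes with the largest called changes at 24 h per other list. Nek2, Kif4, Ect2, Racgap1, Incenp, Cdca8, Cenpe, Espl1, Psrc1, Kif23, Kif2c and Smc2 are named outside it, after their values were seen. Promoter motifs came from general knowledge of cell cycle promoters. The promoters shown were picked from expression values before their motifs were searched; another selection, made after the search, was drafted and put aside. The fitting was tested on simulated data. Alternatives covered background, normalisation, filter, probes, slide, donor and each array left out.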

Additional observations from a re-analysis of the deposited data

How the results depend on the processing

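The fall at 24 h kept its direction and its count of calls best. Under other background corrections, normalisations, probe rules, the donor block and a random slide block, 43 to 47 of the 47 genes were called. With each array left out in turn, 46 to 47 were called. With the slide as a fixed block, the calls were 32 at 24 h (15.9% of all genes), 22 at 6 h (17.6%) and 0 at 1 h (2.04%). At 1 h, 12 had an unadjusted p under 0.05 by limma (15.3% of all genes). The same block gave 1 call for 24 h against 6 h and 28 by the F test. As a random block, the slide gave 3 at 1 h. With median centring in place of loess, the calls were 22 at 6 h, 0 at 1 h (19 unadjusted), 1 each for 6 h against 1 h and for 24 h against 6 h, and 31 by the F test. With normexp on all local backgrounds as deposited, the calls were 20 at 6 h, 1 at 1 h, 4 for 6 h against 1 h, 7 for 24 h against 6 h and 34 by the F test. The median changes were -0.91 at 6 h, -0.051 for 6 h against 1 h and -0.92 for 24 h against 6 h. At 6 h, 41 of the 47 genes lay below 0, where 46 did in the main fit. Among those that turned, Anln, Cdc25c and Ndc80 changed by 0.00067, 0.30 and 0.0098. For 6 h against 1 h, 26 lay below 0, where 43 did in the main fit. Signals as processed by the scanner gave 1 call at 1 h, and the medians were -2.17 at 6 h and -2.90 at 24 h. Keeping only genes above background on all 12 arrays left 34 genes, with 3 called at 1 h and a median of -2.28 at 24 h, and the mean of all probes gave 3 at 1 h. The replicate block by donor gave 13 at 1 h (10.1% of all genes), 8 for 24 h against 6 h (21.7%) and 22 for 6 h against 1 h (31.2%). It changed no call at 6 h or 24 h against unstimulated cells. Without slide 2, 0 were called at 1 h (4.28% of all genes) and 37 at 6 h against 1 h. The causes of these shifts were not tested, apart from the fewer genes kept by the stricter filter. Where a count stands without a share of all genes, it does not show whether the 47 genes or all genes lost calls.

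With each array left out in turn, the calls ranged between 0 and 16 at 1 h, 40 and 44 at 6 h, and 46 and 47 at 24 h. The share of all genes is not given here for each of these fits, so shifts common to all genes cannot be told apart. For 6 h against 1 h they ranged between 7 and 37, and for 24 h against 6 h between 2 and 8. At 1 h the count was 0 without donor A or donor B of unstimulated cells or donor B of 1 h (20, 18 and 10 at an unadjusted p under 0.05), 3 without donor C of unstimulated cells, 1 without donor A and 16 without donor C of 1 h, and 2 without donor A and 10 without donor C of 6 h. At 6 h against 1 h it was 7 without donor A or 8 without donor C of 1 h, 7 without donor A or donor B of 6 h, and 28 without donor C of 6 h. At 24 h against 6 h it was 2 without donor A and 8 without donor B of 6 h. Signal over background limited 13 of the 47 genes, which were not above background on every array.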
